A study of Mus musculus with 7 samples.

Results

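The bone morphogenetic protein (BMP) and transforming growth factor beta (TGF-beta) genes of the embryonic mouse kidney are described here, in whole kidneys with and without a deletion of Irx3 and Irx5 in the nephron lineage. Members were taken by gene symbol: the BMP, growth differentiation factor (GDF), TGF-beta and activin ligands, their receptors, the Smads, secreted antagonists and Id1 to Id4. The deposited table lists 44 such genes among 16167. They were matched by symbol alone, but the symbols were chosen with earlier results of these data known. RNA-seq was done on 7 libraries of E15.5 kidneys. The 4 mutant libraries carry Six2-Cre, a Cre recombinase driven by a gene of the nephron progenitors, with floxed Irx3/5(loxP/loxP) alleles on both chromosomes. The 3 controls are Irx3/5(loxP/+) littermates, which carry 1 floxed copy, are called WT in the genotype field and have no Cre named in their labels, so that deletion and Cre cannot be told apart. The Iroquois factors Irx3 and Irx5 are homeodomain transcription factors. Kidneys were collected in pairs, but the number of embryos in a library is not stated, so a p-value reflects no more than the spread among these 7 libraries.

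Ligands of this superfamily are secreted dimers that bring type I and type II serine/threonine kinase receptors together. The type II receptor phosphorylates the type I receptor, which phosphorylates a receptor-regulated Smad. BMP receptors act mostly on Smad1, Smad5 and Smad9, TGF-beta and activin receptors mostly on Smad2 and Smad3, and both branches share Smad4. Smad6 and Smad7 inhibit the receptors, secreted antagonists such as noggin trap ligands outside the cell, and the Id genes are common BMP targets. In the developing kidney Bmp7 is known for its part in keeping nephron progenitors alive and cycling, and Bmp4 for its part in the stroma around the ureter.

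Reads in the listed genes numbered 40511920 to 69028943 per library. Irx3 stood at 14.7, 14.2 and 12.7 FPKM (length- and depth-scaled fragment counts) in control kidneys and at 6.63, 3.98, 5.57 and 6.75 in mutant kidneys, and fell in the limma test (adjusted p = 0.0145, and 0.086 without control replicate 1 and 0.105 without control replicate 2). Irx5 stood at 1.36 to 1.59 in control kidneys and 0.90 to 2.05 in mutant kidneys, which overlap (adjusted p = 0.989), and which part of each gene the loxP sites remove is not given in the sources used here. All 10 nephron progenitor markers were listed, with Six2 at 48.6 to 62.8 in control kidneys and 28.9 to 48.9 in mutant kidneys. Summed FPKM of those 10 was 224 to 230 in control kidneys and 154 to 174 in mutant kidneys. Fold changes lay above 0 for 2, Crym and Osr1, and below 0 for 8. Groups did not overlap for 1 that was higher and 5 that were lower, beside 14.5% of all genes tested. Limma called 5 of 10, beside 1.53% of all genes tested: Uncx, Cited1, Meox1 and Tmem100 fell and Crym rose. Uncx (34.1 and 7.99 as group means) and Cited1 (23.8 and 5.25) had the largest falls in FPKM, and Crym had means of 37.97 and 51.6. The 8 podocyte markers summed to 135 to 150 and 81.5 to 100.5, and the 8 proximal tubule markers to 79.4 to 96.1 and 26.4 to 57.4. Limma called 3 of the 8 podocyte markers and 2 of the 7 proximal tubule markers tested, all lower. Groups did not overlap for 7 and 6 of them, all lower. Ureteric bud markers (10 genes) summed to 276 to 294 and 318 to 356, but did not move together. Their limma fold changes lay above 0 for 6 and below 0 for 4. Groups did not overlap for 5 that were higher and for 2, Wnt11 and Aqp2, that were lower, beside 5.93% and 8.61% of all genes tested. Limma called 1 ureteric bud marker, Calb1, which was higher. Stroma markers (10 genes) summed to 545 to 679 and 654 to 841, with fold changes above 0 for 9 and below 0 for 1, Pdgfrb. Groups did not overlap for 5 stroma markers, all higher, and limma called 2, Aldh1a2 and Ntn1. Endothelium markers (8 genes) summed to 155 to 165 and 172 to 181, and macrophage markers (8 genes) to 29.5 to 29.9 and 34.9 to 40.5. Groups did not overlap for 2 endothelium and 4 macrophage markers, all higher, and limma called 0 of either list. Control replicate 1 stood apart in 4 listed skeletal muscle markers (60.4 summed, against 5.76 to 7.63 elsewhere). Limma called 0 members with all libraries, and also with control replicate 1 or mutant replicate 3 left out. Over all genes its calls went from 206 to 14 and 124 in those 2 refits. The repeated 0 therefore cannot show whether either library matters for the members. Mutant replicate 3 had the highest embryonic to adult beta-globin ratio, with Hbb-y at 10.5% of Hbb-bs against 1.34 to 3.45% in the other 6 libraries.

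Most members had overlapping ranges in the 2 genotypes, and a few ligands and inhibitors stood apart. Bmp7, Bmp2, Nog and Smad6 were lower in every mutant library than in any control, and Tgfb3, Tgfb2 and Acvr1 were higher. Of the 44 members, 38 reached 1 FPKM in at least 3 libraries and were tested. In limma on log2(FPKM + 1), 0 of 38 had a Benjamini-Hochberg adjusted p under 0.05, where 1.53% of the 13466 genes tested were called. At an unadjusted p under 0.05 there were 8 of 38 (21.1%, 3 higher and 5 lower), beside 13.7% of all genes. By limma-voom on recovered reads 0 members were called. In the authors' deposited table of DESeq2 results, 4 of 44 members passed an adjusted p of 0.05 (9.09%), beside 5.49% of genes with a p-value. By direction, that table called 3 members lower (Bmp7, Nog and Smad6), where 3.74% of genes were lower, and 1 member higher (Tgfb3), where 1.75% were higher. The 2 groups did not overlap for 7 of 38 members (18.4%), beside 14.5% of all genes; 4 members were lower, beside 8.61% of genes, and 3 were higher, beside 5.93%. Fold changes lay above 0 for 19 members and below 0 for 19, with a median of 0.0062 on the log2 scale, beside -0.0020 for all genes tested. The unadjusted, deposited and non-overlap shares exceed their backgrounds by a few genes at most and are not read as a property of the family.

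**Figure D1:**
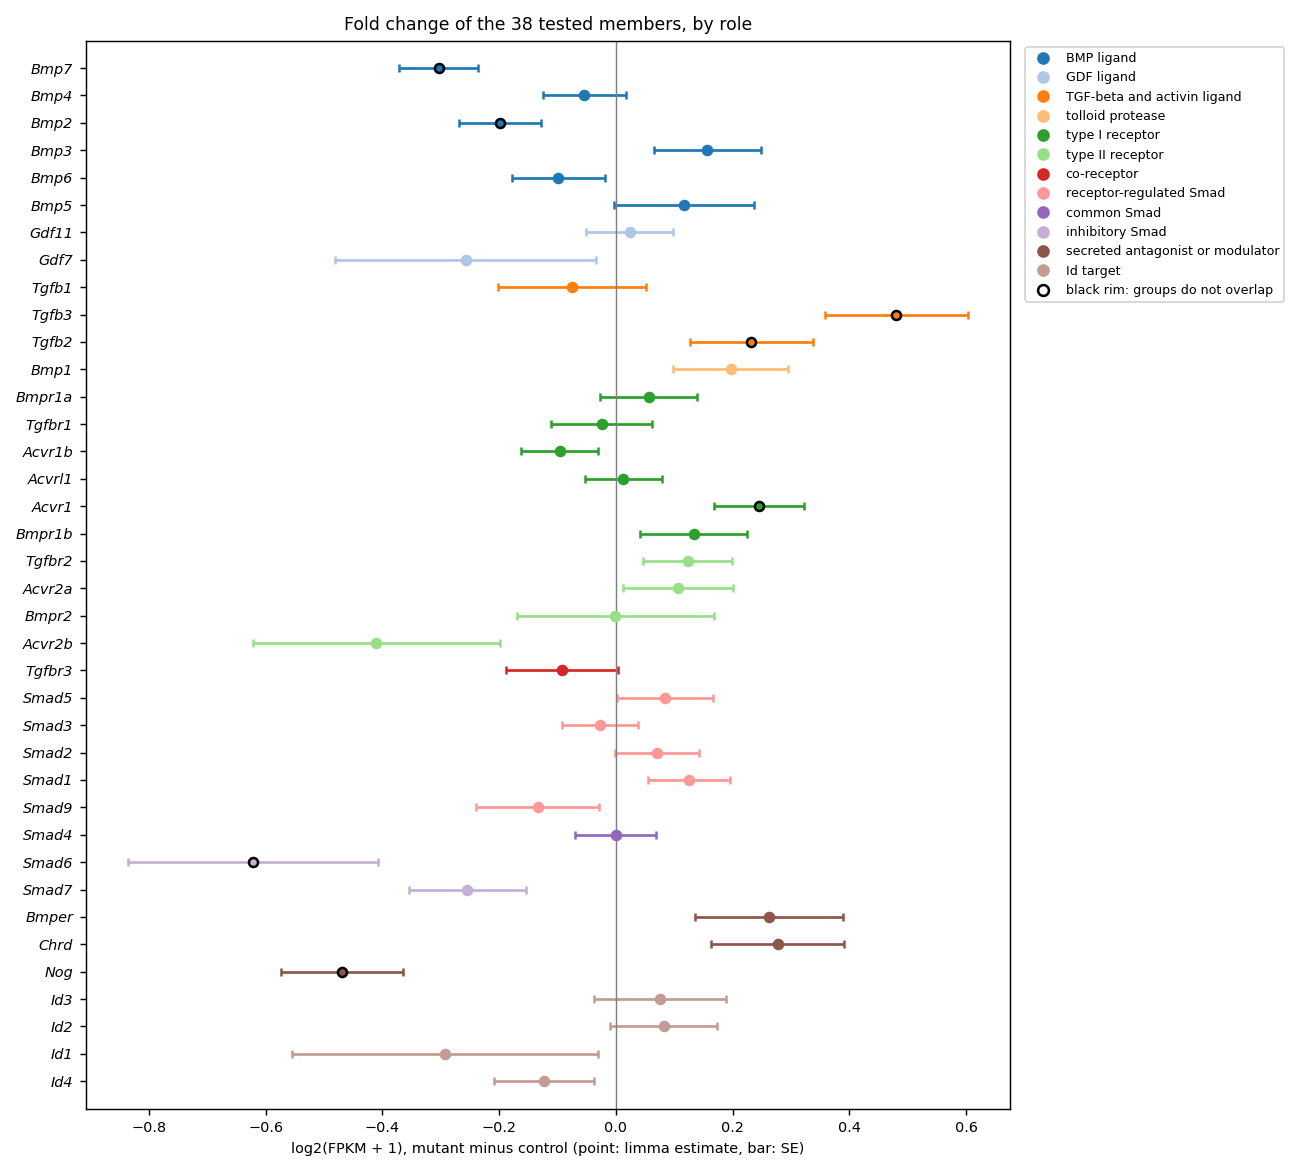
Difference of mutant from control, as log2(FPKM + 1), of the 38 tested members, with limma's standard error as bars and the role as colour. A black rim marks the 7 members whose groups do not overlap, from Smad6 at -0.62 to Tgfb3 at 0.48.

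The promoters of 3 members are shown because their groups do not overlap (Smad6 and Tgfb2) or because the gene is a classical BMP target (Id4). The 3 windows are taken from RefSeq on GRCm38.p6, which is not the build of the table. Each is the 250 bases before the most upstream start that the promoter set gives for the gene. They are printed 5′ to 3′ on the gene's strand with Smad motifs in capitals. The Smad6 window, chr9:64022086-64022309 on the minus strand, leaves out bases transcribed in another RefSeq model and holds none of the motifs searched. The Tgfb2 window, chr1:186705990-186706239 on the minus strand, holds CAGAC at 2 places. The whole window, with both CAGAC places, lies within the annotated Tgfb2 gene, so it is not upstream of that gene. The Id4 window, chr13:48260866-48261115 on the plus strand, holds GGCGCC once and is overlapped by the annotated gene A330033J07Rik.
Smad6: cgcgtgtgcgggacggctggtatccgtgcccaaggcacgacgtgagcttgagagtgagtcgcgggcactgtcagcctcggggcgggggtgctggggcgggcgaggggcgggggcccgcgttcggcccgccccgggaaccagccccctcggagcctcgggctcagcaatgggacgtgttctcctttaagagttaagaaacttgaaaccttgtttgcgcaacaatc
Tgfb2: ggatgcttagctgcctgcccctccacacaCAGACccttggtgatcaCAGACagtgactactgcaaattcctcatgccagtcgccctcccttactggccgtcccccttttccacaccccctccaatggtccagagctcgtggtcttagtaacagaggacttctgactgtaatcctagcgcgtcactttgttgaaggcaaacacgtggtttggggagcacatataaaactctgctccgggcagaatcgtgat
Id4: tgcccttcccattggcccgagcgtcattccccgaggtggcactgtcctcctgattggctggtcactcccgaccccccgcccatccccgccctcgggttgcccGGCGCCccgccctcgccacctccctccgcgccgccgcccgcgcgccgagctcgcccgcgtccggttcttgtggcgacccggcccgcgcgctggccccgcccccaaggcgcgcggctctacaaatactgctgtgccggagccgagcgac
Of the members, 30 of 44 had a promoter in the table. Bmp7, Bmp2, Nog and Tgfb3, whose groups do not overlap, had none and are missing from the counts below. Acvr1, also without overlap, had a promoter with none of the motifs searched and is not shown. GGCGCC, a palindrome known from BMP-responsive Smad elements, was in 8 of 30 (26.7%: Bmpr1a, Bmpr2, Chrd, Grem1, Id2, Id4, Smad9 and Tgfbr1), beside 9.57% of 27025 promoters. CAGAC, a Smad box searched on both strands, was in 10 of 30 (33.3%), beside 42.2%. ACANNTGT, which reads the same on both strands and is a motif reported for Iroquois proteins, was in 0 of 30, beside 6.28%. Median GC content was 69% over the member promoters and 52% over all. These matches describe letters in a window, and no binding was measured.

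Among the BMP ligands, Bmp7 had the highest RNA level and was the ligand that fell in the authors' deposited table. Bmp7 (ENSMUSG00000008999.8) stood at 28.8, 33.3 and 31.9 FPKM in control kidneys and at 24.5, 24.6, 26.5 and 25.1 in mutant kidneys. Every mutant library lay below every control, with means of 31.4 ± 2.30 (SD, n = 3) and 25.2 ± 0.94 (SD, n = 4). The fold change was -0.30 ± 0.067 (SE) on the log2(FPKM + 1) scale, with a limma adjusted p of 0.0719 and an exact two-sided permutation p of 0.0286, the smallest that 35 arrangements allow. The authors' deposited table gives -0.32 with an adjusted p of 0.0049. In whole kidneys, fewer cells of a type and less RNA per cell cannot be told apart. The progenitor marker sum was also lower, as given above, with Uncx and Cited1 the largest falls in FPKM. Of the 10 markers, 2 (Crym and Osr1) went in the other direction. The part of these markers in the Bmp7 difference was not tested.

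Bmp2, which like Bmp4 signals through the type I receptors Bmpr1a and Bmpr1b, stood at 5.19, 5.38 and 5.25 FPKM in control kidneys and 4.27, 4.28, 4.48 and 4.85 in mutant kidneys. Its groups did not overlap (exact permutation p = 0.0571). The difference of -0.20 ± 0.070 (SE, log2 scale) did not pass limma (adjusted p = 0.233) or the authors' deposited table (adjusted p = 0.160). Bmp4 was at 15.9, 17.6 and 17.4 in control kidneys and 16.9, 14.8, 16.8 and 16.8 in mutant kidneys, and its groups overlapped. Bmp3, an atypical BMP that opposes the others, ranged from 3.56 to 4.38 in control kidneys and 3.85 to 4.62 in mutant kidneys. Bmp5 and Bmp6, close relatives of Bmp7, had overlapping ranges (1.26 to 2.14 and 1.66 to 2.03 for Bmp5, and 3.28 to 3.57 and 2.95 to 3.54 for Bmp6). Summed over Bmp2 to Bmp7, ligand RNA was 59.7 to 65.0 FPKM in control kidneys and 53.2 to 57.0 in mutant kidneys. Bmp7 made up 48.3 to 51.3% of that sum in control kidneys and 44.5 to 46.6% in mutant kidneys. The Bmp7 to Bmp4 ratio of FPKM was 1.81, 1.89 and 1.83 in control kidneys and 1.45, 1.66, 1.58 and 1.495 in mutant kidneys, again without overlap. In order of mean level the BMP ligands ran Bmp7, Bmp4, Bmp2, Bmp3, Bmp6 and Bmp5, and neighbours in that order overlapped in range for Bmp2 and Bmp3 in mutant kidneys and for Bmp3 and Bmp6 in the controls.

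**Figure D2:**
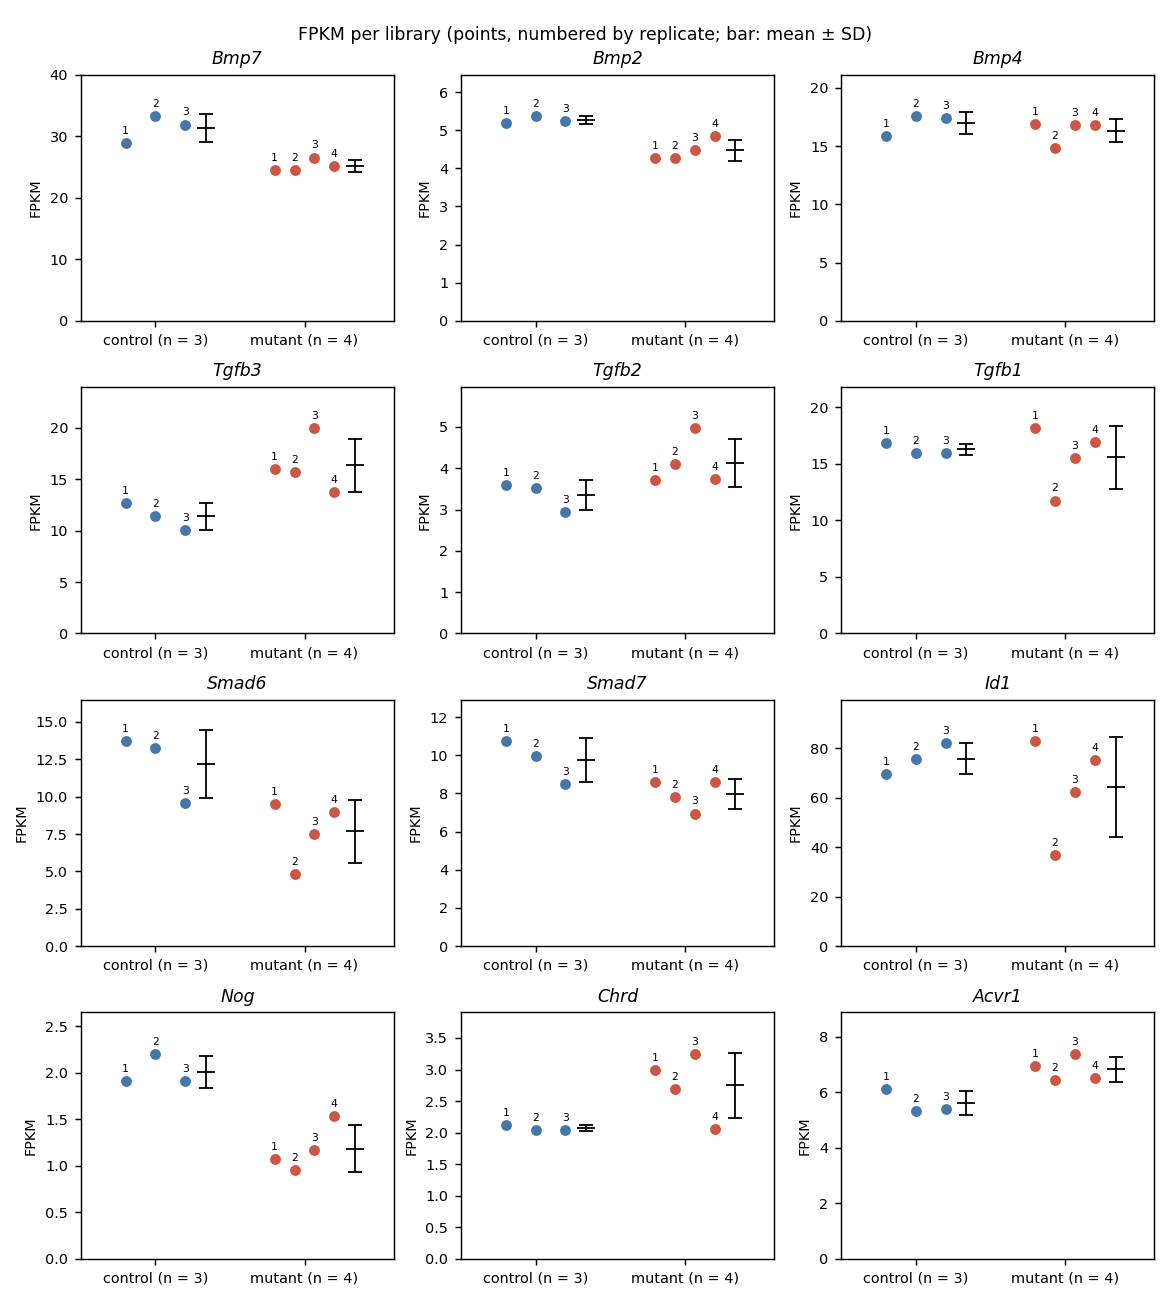
FPKM of 12 members in each library (points numbered by replicate, 3 controls and 4 mutants), with the group mean and SD as a bar beside them. Bmp7 lies between 28.8 and 33.3 in control kidneys and between 24.5 and 26.5 in mutant kidneys.

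Among the GDF ligands, Gdf11, which acts in ureteric bud outgrowth, was the most abundant at 14.2, 12.6 and 11.98 FPKM in control kidneys and 12.7, 13.3, 12.5 and 13.9 in mutant kidneys, with no separation. Gdf7 had 1 low control library (1.403 against 3.34 and 3.92) and ranged from 1.79 to 2.29 in mutant kidneys. Gdf10 ranged from 0.23 to 0.65 over the libraries and was not tested.

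Of the TGF-beta and activin ligands, 2 of the 3 tested stood apart between groups, both higher in mutant kidneys, beside 5.93% of all genes apart and higher; with 3 genes nothing is read from that count. Tgfb3 (ENSMUSG00000021253.8) stood at 12.7, 11.4 and 10.03 FPKM in control kidneys and 16.0, 15.7, 20.0 and 13.7 in mutant kidneys, so that the lowest mutant lay above the highest control. Means were 11.4 ± 1.34 (SD, n = 3) and 16.4 ± 2.61 (SD, n = 4). The fold change of 0.48 ± 0.12 (SE, log2 scale) had a limma adjusted p of 0.0977 and an exact permutation p of 0.0571. Tgfb3 rose in the authors' deposited table, by 0.52 on the log2 scale with an adjusted p of 0.0080. Stroma marker RNA was also higher in mutant kidneys, though its ranges overlapped, and its part in the Tgfb3 difference was not tested. Tgfb2 was at 3.60, 3.53 and 2.94 in control kidneys and 3.72, 4.11, 4.97 and 3.73 in mutant kidneys. Its groups touch closely without overlapping, and the difference of 0.23 ± 0.11 did not pass (limma adjusted p = 0.384, exact permutation p = 0.0857). Tgfb1 was at 16.8, 16.0 and 15.9 in control kidneys and 18.1, 11.7, 15.47 and 16.9 in mutant kidneys, where mutant replicate 2 was the lowest library. Tgfb3 made up 34.7 to 38.3% of the Tgfb1 to Tgfb3 sum in control kidneys and 40.0 to 49.8% in mutant kidneys. The activin subunits were low and not tested: Inhba was at 0.231, 0.212 and 0.244 in control kidneys and 0.346, 0.408, 0.313 and 0.250 in mutant kidneys, without overlap, and Inhbb overlapped at 0.27 to 0.54. Bmp1, a tolloid protease that cleaves procollagen and chordin and is no ligand, was at 20.2, 16.1 and 19.1 in control kidneys and 20.3, 20.8, 24.5 and 19.5 in mutant kidneys.

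Of 11 receptors and co-receptors, 1 stood apart between groups, beside 14.5% of all genes tested, and nothing is read from that count. The type I receptors were led by Bmpr1a, a BMP receptor, at 34.4, 35.9 and 33.2 FPKM in control kidneys and 31.1, 39.4, 36.5 and 37.1 in mutant kidneys. Acvr1, a BMP type I receptor, was the receptor whose groups did not overlap, at 6.11, 5.32 and 5.39 in control kidneys and 6.96, 6.43, 7.40 and 6.53 in mutant kidneys. Its means were 5.61 ± 0.44 (SD, n = 3) and 6.83 ± 0.44 (SD, n = 4), and the fold change was 0.25 ± 0.078 (SE, log2 scale). That difference had a limma adjusted p of 0.178, an exact permutation p of 0.0286 and an adjusted p of 0.0746 in the authors' deposited table. Tgfbr1, the TGF-beta type I receptor, Acvr1b, an activin receptor, Acvrl1, a receptor of endothelial cells, and Bmpr1b overlapped between groups, with fold changes from -0.10 (Acvr1b) to 0.13 (Bmpr1b). Tgfbr2, the TGF-beta type II receptor and the highest of its class, was at 12.6, 12.7 and 11.0 in control kidneys and 12.3, 14.1, 13.7 and 13.0 in mutant kidneys. Acvr2a and Bmpr2 overlapped, with fold changes of 0.11 and -0.0009. Acvr2b ranged from 6.98 to 7.89 in control kidneys and 3.21 to 7.73 in mutant kidneys, where mutant replicate 1 was lowest (fold change -0.41 ± 0.21, SE, limma adjusted p = 0.476, and -0.22 without that library, adjusted p = 0.388). Tgfbr3, the co-receptor betaglycan, was at 6.11, 5.43 and 5.20 in control kidneys and 4.73, 4.65, 5.39 and 5.97 in mutant kidneys.

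**Figure D3:**
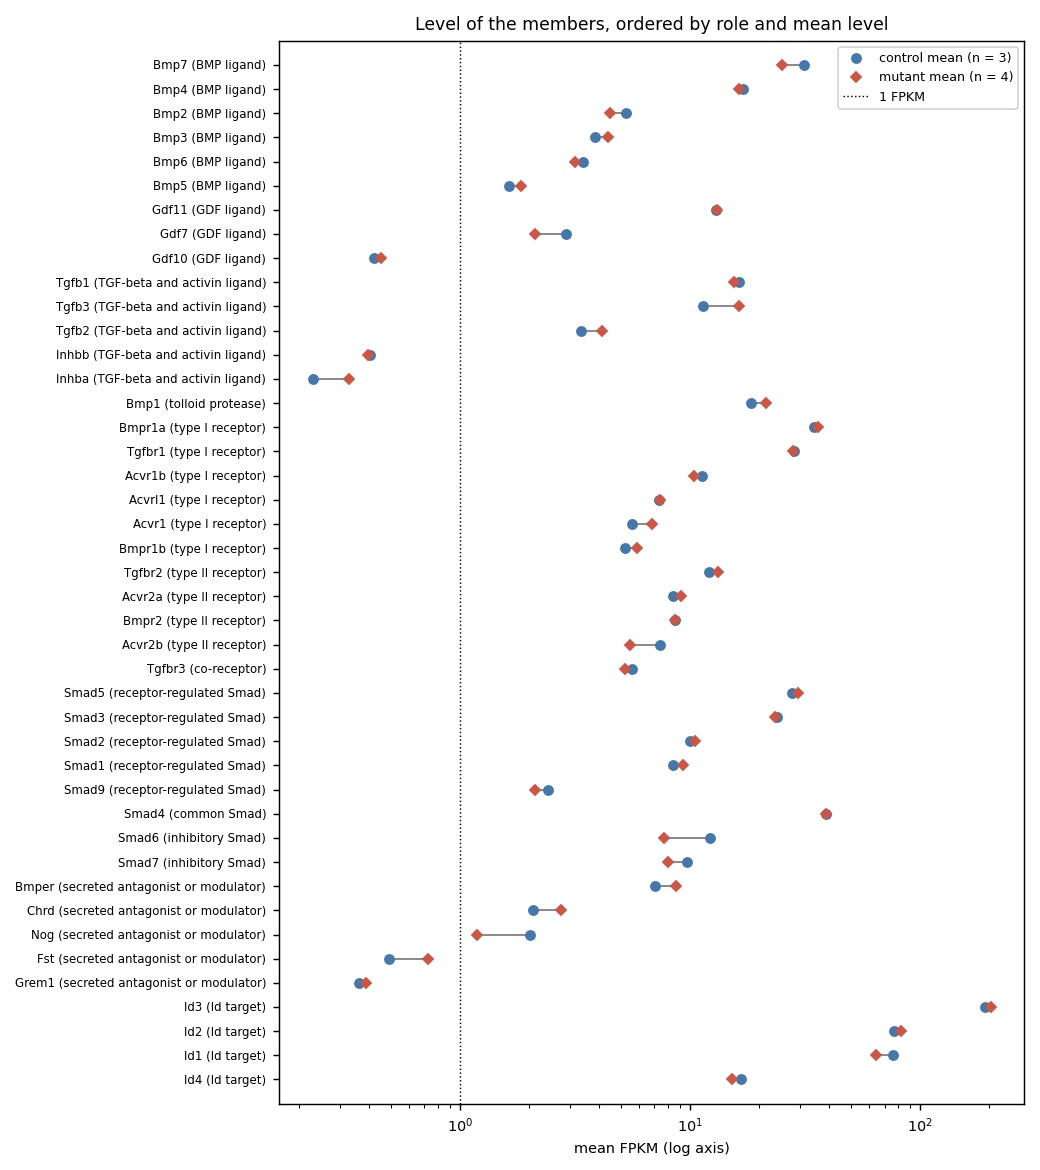
Mean FPKM of the members on a log axis, with circles for the 3 controls and diamonds for the 4 mutants, joined by a line and ordered by role. Id3 is highest, at means of 190.8 and 202.2, and the untested members (such as Gdf10, Inhba, Inhbb, Grem1 and Fst) lie left of the dotted line at 1 FPKM.

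The receptor-regulated and common Smads overlapped between groups for all 6 genes, where 14.5% of all genes tested did not overlap. Smad5, a BMP Smad, was at 29.5, 26.5 and 27.3 FPKM in control kidneys and 25.8, 30.3, 32.0 and 30.2 in mutant kidneys. Smad4 was at 36.9, 38.6 and 41.2 in control kidneys and 35.7, 39.9, 39.1 and 40.9 in mutant kidneys, with a fold change of -0.0004 ± 0.069 (SE, log2 scale). The fold changes of Smad1, Smad2, Smad3 and Smad9 lay between -0.13 (Smad9) and 0.13 (Smad1). Smad6, an inhibitory Smad that acts mainly on the BMP branch, was lower in every mutant. It stood at 13.7, 13.3 and 9.56 in control kidneys and 9.52, 4.81, 7.49 and 8.94 in mutant kidneys, where mutant replicate 1 and control replicate 3 nearly met. Means were 12.2 ± 2.28 (SD, n = 3) and 7.69 ± 2.10 (SD, n = 4). The fold change of -0.62 ± 0.21 (SE, log2 scale) had a limma adjusted p of 0.236 and an exact permutation p of 0.0286, and Smad6 fell in the authors' deposited table (-0.66, adjusted p = 0.0414). Smad7, which inhibits both branches, was at 10.8, 9.96 and 8.48 in control kidneys and 8.59, 7.80, 6.95 and 8.62 in mutant kidneys, and its groups overlapped (fold change -0.25 ± 0.099, limma adjusted p = 0.290). The Smad6 to Smad7 ratio was 1.13 to 1.33 in control kidneys and 0.616 to 1.11 in mutant kidneys.

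Of the 3 secreted antagonists and modulators tested, 1 had a negative fold change and 2 had positive ones. Noggin (Nog, ENSMUSG00000048616.5), which binds BMPs and keeps them from their receptors, stood at 1.92, 2.21 and 1.91 FPKM in control kidneys and 1.07, 0.958, 1.17 and 1.54 in mutant kidneys. All mutants lay below all controls, with means of 2.01 ± 0.17 (SD, n = 3) and 1.18 ± 0.25 (SD, n = 4), from 76 to 227 reads per library. The fold change was -0.47 ± 0.10 (SE, log2 scale), with a limma adjusted p of 0.0720 and an exact permutation p of 0.0571. Nog fell in the authors' deposited table, by 0.76 on the log2 scale of that table, with an adjusted p of 0.0193. Chordin (Chrd) was at 2.13, 2.05 and 2.04 in control kidneys and 2.99, 2.69, 3.25 and 2.06 in mutant kidneys, where mutant replicate 4 was level with the controls (fold change 0.28 ± 0.11, limma adjusted p = 0.315). Bmper, a secreted BMP modulator and the most abundant of the class, was at 7.44, 6.36 and 7.28 in control kidneys and 6.93, 8.41, 10.9 and 8.65 in mutant kidneys, which overlap. Gremlin (Grem1), a BMP antagonist, and follistatin (Fst), an activin antagonist, reached 0.46 and 1.17 FPKM in their highest library and were not tested.

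**Figure D4:**
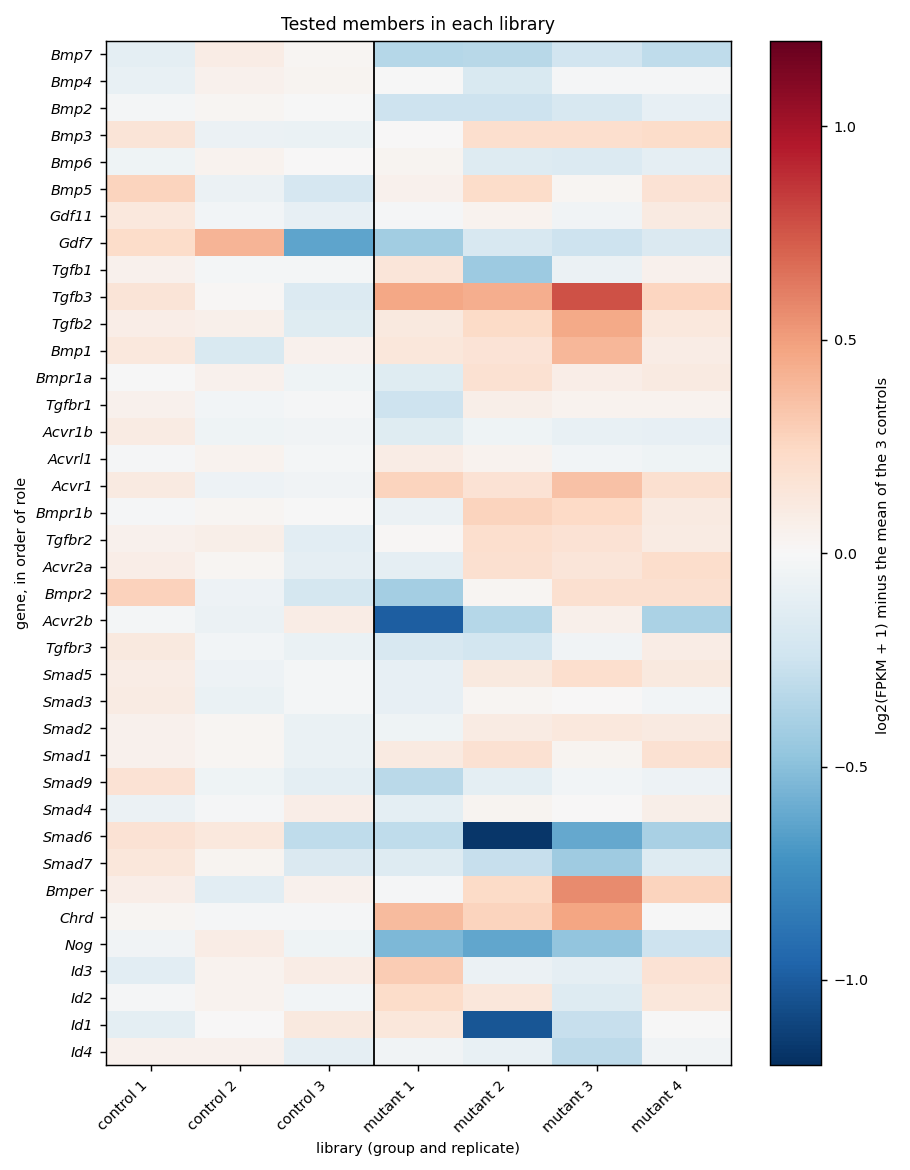
Colour gives the difference of each of the 38 tested members (rows) in each library (columns) from the control mean, on the log2(FPKM + 1) scale. Bmp7, Nog and Smad6 are lower in the 4 mutant columns, and Tgfb3 is higher.

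The Id genes, which encode dominant negative partners of basic helix-loop-helix factors and are induced by BMP signalling in many cells, overlapped between groups. Id3, the highest member of all, was at 173.9, 196.2 and 202.3 FPKM in control kidneys and 235.3, 181.5, 176.4 and 215.4 in mutant kidneys. Id1 was at 69.5, 75.7 and 82.2 in control kidneys and 83.0, 36.7, 62.2 and 75.4 in mutant kidneys, where mutant replicate 2 was the low library (limma adjusted p = 0.741). Id2 and Id4 had fold changes of 0.08 ± 0.092 and -0.12 ± 0.086 (SE, log2 scale). Summed over Id1 to Id4, RNA was 337 to 375 FPKM in control kidneys and 319 to 424 in mutant kidneys.

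Further genes of the 2 pathways were taken from a textbook list. Of 47 further genes listed, 40 were tested, and limma called 0 of them at an adjusted p under 0.05 (8 at an unadjusted p under 0.05, 20.0% beside 13.7% of all genes, and 1, Sost, by limma-voom). Groups did not overlap for 11 of 40 (27.5%, 6 higher and 5 lower), beside 14.5% of all genes. Fold changes lay above 0 for 17 and below 0 for 23, with a median of -0.01 on the log2 scale. These shares are descriptions and are not read as a property of the list. The authors' deposited table called 5 of 47 (10.6%, beside 5.49% of all genes), of which Dcn, Smoc2 and Tgfbi rose and Sost and Sostdc1 fell. Sost, a BMP and Wnt antagonist, was at 2.67, 3.00 and 1.65 FPKM in control kidneys and 1.36, 0.683, 0.746 and 1.14 in mutant kidneys (fold change -0.79 ± 0.17, limma adjusted p = 0.0673). Its relative Sostdc1 was at 42.2, 46.7 and 35.7 in control kidneys and 30.7, 23.4, 12.4 and 21.5 in mutant kidneys (-0.94 ± 0.27, limma adjusted p = 0.171), with mutant replicate 3 lowest. Both lay below every control in every mutant library. Smoc2, a matricellular protein, was at 16.5, 20.1 and 18.8 in control kidneys and 26.4, 24.7, 27.1 and 21.8 in mutant kidneys (0.42 ± 0.094, limma adjusted p = 0.0722). Tgfbi, a matrix protein induced by TGF-beta, was at 51.1, 54.4 and 49.98 in control kidneys and 67.4, 63.4, 77.9 and 61.4 in mutant kidneys (0.37 ± 0.088, limma adjusted p = 0.0823). Dcn, decorin, a matrix proteoglycan that binds TGF-beta, was at 64.9, 60.03 and 37.96 in control kidneys and 85.2, 76.6, 90.6 and 71.3 in mutant kidneys (0.60 ± 0.18, limma adjusted p = 0.158), with control replicate 3 lowest. Without control replicate 3 the Dcn difference was 0.36 (limma adjusted p = 0.231). Stroma marker RNA was higher in mutant kidneys too, as given above, and its part in these matrix genes was not tested.

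**Figure D5:**
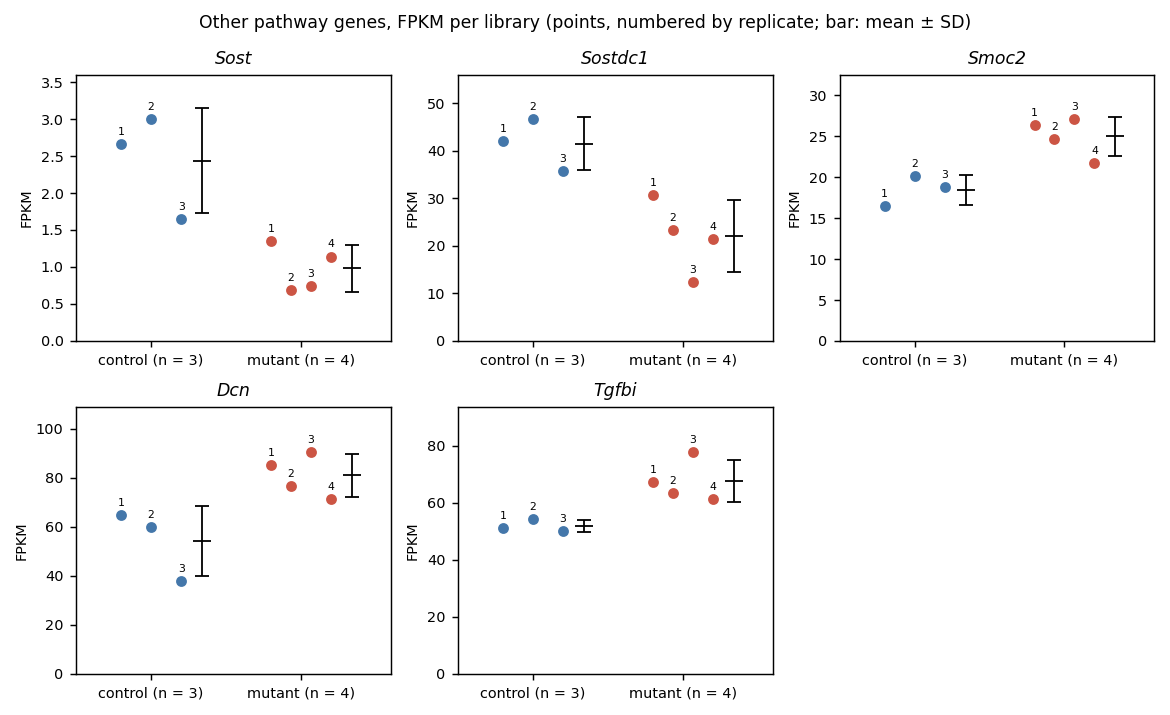
FPKM in each library of the 5 further pathway genes called in the authors' deposited table (points, 3 controls and 4 mutants), with group mean and SD beside them. Sostdc1 lies between 35.7 and 46.7 in control kidneys and between 12.4 and 30.7 in mutant kidneys.

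Of the 38 tested members, 13 were lowest in mutant replicate 1, where 25.0% of all genes tested were lowest, and 10 in control replicate 3, where 13.3% were. Mutant replicate 2 was lowest for 6 members, where 15.6% of all genes were lowest, a share near that of the members.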

How the data were processed

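Per the labels' protocols, a Qiagen RNeasy kit gave the RNA and a stranded kit (NEB Ultra II Directional) the libraries. Per the submitters' processing notes, the authors' tools were STAR 2.6.0c, HTSeq 0.6.1p2, DESeq2, FastQC 0.11.5 and Trim Galore 0.5.0, named without their roles, and the build was mm39; strand setting and gene length definition are not given in the sources used here. Per the file headers, the authors deposited FPKM per library and DESeq2 columns: a mean normalized signal (baseMean), a log2 fold change with its standard error, a test score, a p-value and an adjusted p-value. The lowest deposited signal was 18.5, and 14 genes have no p-value. Whole reads were recovered from signal and FPKM (100% within 0.05 of whole numbers) and give the depth; counting precision varies with it.

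Groups came from the titles. The 13466 genes that reached 1 FPKM in 3 or more libraries (2701 did not) were compared on log2(FPKM + 1), which understates changes of low genes. The test was limma 3.58.1 under R 4.3.3, two-sided, with the trend and robust options of its empirical Bayes step, called at a Benjamini-Hochberg adjusted p under 0.05. Mean FPKM were also compared by exact permutation over 35 arrangements. These p-values were not adjusted over genes. Where groups do not overlap they are small by construction, so they add nothing to the separation itself. The fit was also run on simulated counts, as a check of the code. Their spread was fixed and not taken from these libraries, so that run does not show how readily changes of the members would be called. Members and lists were chosen with earlier results of these data known. Members are named by role, except 1 that enters the counts and is not reported here; every library's value is given for members called in either test, with groups apart or highest in their role, and a few more were added after their values were seen (Smad7, Chrd, Id1, Bmp4, Tgfb1 and Tgfbr3 among them). Of the further pathway genes, those called are named. Alternatives were other pseudocounts, filters, scalings, weights, covariates, tests and each library left out.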

Additional observations from a re-analysis of the deposited data

Results flagged for a closer look

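Within the 4 mutants, 1 library lay far from the others for 3 of 44 members, by the gap to the nearest value over the range; chance gives about 5% (1 in 20 groups). Tgfbr1 was at 23.5 FPKM in mutant replicate 1 and at 29.1 to 29.7 in the others. Bmp3 was at 3.85 in mutant replicate 1 and at 4.54 to 4.62 in the others. Bmp4 was at 14.8 in mutant replicate 2 and at 16.8 to 16.9 in the others.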

How the results depend on the processing

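Limma called 0 of 38 members in the fit as reported and in all alternatives except array weights (4: Acvr1 and Bmper higher, Bmp7 and Nog lower) and the authors' deposited table (4: Bmp7, Nog and Smad6 lower, Tgfb3 higher). Leaving out each library in turn gave 0 members each time. Of the further pathway genes, 0 were called as reported, 6 with array weights (Ccn2, Fstl3, Furin, Sost, Sostdc1 and Tgfbi), 1 by limma-voom (Sost), 1 with the globin covariate (Sostdc1), 5 in the authors' deposited table, and 0 to 1 with a library left out (Sost without mutant replicate 1). Over all genes, 206 were called as reported, 109 with a pseudocount of 0.1, 60 with a minimum of 5 FPKM, 1302 with array weights, 886 in the authors' deposited table, and 11 (without control replicate 2) to 486 (without mutant replicate 1) with a library left out; the cause was not tested. With the replicate number as a block, 0 members and 2 of all genes were called. Deviations of same-numbered libraries from their group means correlated with r of -0.156, 0.028 and 0.098 over genes for numbers 1 to 3. No pairing was assumed in the fit as reported. Such low values cannot show whether same-numbered libraries were handled together. The 7 tested members that stood apart kept their sign under every alternative that gave a value. So did the 5 further pathway genes called in the authors' deposited table. Signs of the other further genes that stood apart were not followed. Near 0, signs turned. With array weights the fold change was -0.037 for Acvrl1, 0.046 for Tgfbr1, 0.053 for Smad4, 0.014 for Smad3, 0.142 for Bmpr2 and 0.058 for Irx5. With quantile normalization it was 0.030 for Bmpr2 and 0.031 for Irx5, with the replicate block -0.0028 for Gdf11, and with the globin covariate 0.016 for Irx5. The authors' deposited table gives 0.00018 for Smad4, 0.0044 for Bmpr2 and 0.029 for Irx5. With a library left out, fold changes ran from -0.012 to 0.033 for Acvrl1, -0.151 to 0.045 for Tgfb1, -0.056 to 0.052 for Tgfbr1, -0.00043 to 0.138 for Id3, -0.036 to 0.041 for Smad4, -0.025 to 0.089 for Gdf11, -0.066 to 0.024 for Smad3, -0.108 to 0.137 for Bmpr2 and -0.115 to 0.113 for Irx5; the cause was not tested. Irx3 had an adjusted p of 0.0974 with the replicate block.

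Over the refits the adjusted p ran from 0.0059 to 0.326 for Bmp7, from 0.0311 to 0.316 for Nog, from 0.056 to 0.331 for Tgfb3 and from 0.092 to 0.578 for Smad6, and the authors' deposited table gives lower values of 0.0049, 0.0193, 0.0080 and 0.0414. With a library left out, fold changes ran from -0.36 to -0.26 for Bmp7, from -0.54 to -0.42 for Nog, from 0.39 to 0.56 for Tgfb3 and from -0.77 to -0.44 for Smad6. The 6 untested members were left out by the 1 FPKM filter, and with no filter limma called 0 of 44 members. Among tested members, reads per library were fewest for Nog (76 to 227) and Gdf7 (82 to 334).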
